A study of Mus musculus with 6 samples.

Results

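Alveolar type 2 cells make pulmonary surfactant, and 10 genes that define these cells and their product were followed through the lungs of 6 mice. The set was chosen by name: the surfactant proteins Sftpc, Sftpb, Sftpa1 and Sftpd, the lamellar body and processing genes Abca3, Lamp3 and Napsa, the phosphate carrier Slc34a2, the acyltransferase Lpcat1 and the transcription factor Etv5. The rule used names alone, although earlier results of these data were known when the genes were chosen. These are 10 of the 25860 genes counted, and all 10 passed the low-count filter of at least 10 counts summed over the 6 libraries.

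The study asked which lung genes are expressed differently when one copy of Sgo1 (Shugoshin 1, a guardian of sister chromatid cohesion) is lost in mice without Rag1. The control group was 3 RAG1-/- mice (replicates 1, 2 and 3). The other group was 3 RAG1-/- Sgo1-/+ mice (replicates 4, 5 and 6), so both groups lacked RAG1, the recombinase that mature T and B cells need. Every mouse was 12 months old and untreated, and RNA was taken from lung that looked normal. One library per mouse was sequenced, and P-values measure the spread between these libraries, animal and technical together.

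Surfactant is a film of phospholipid and protein that lowers surface tension at the air-liquid surface of the alveolus. Type 2 cells store it in lamellar bodies, organelles of lysosomal origin, where the hydrophobic proteins SP-B and SP-C are packed with lipid. The collectins SP-A and SP-D are secreted as well and bind microbes, and used surfactant is taken back by type 2 cells or cleared by alveolar macrophages. NKX2-1, a homeodomain factor, and forkhead factors drive many of these genes, and FGF receptor signalling acts in part through Etv5.

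Promoters of surfactant genes are the textbook place where these factors act, so 3 windows with a match among the 10 genes are shown here, taken from RefSeq on GRCm38.p6 and running from 250 bases before to 50 bases after the start of the gene. The table held 8 promoters for 7 of the 10 genes, with an entry for each of 2 starts of Etv5. Capitals mark an NKX2-1 element (GCNCTNNAG) or a forkhead motif (TGTTTAC), searched on both strands. The promoter of Sftpb (chr6:72304360-72304659, plus strand) holds 2 overlapping NKX2-1 elements, 1 on each strand, that of Sftpa1 (chr14:41131538-41131837, plus strand) holds 1, and that of Lamp3 (chr16:19706316-19706615, minus strand) holds 1 forkhead motif.
Sftpb: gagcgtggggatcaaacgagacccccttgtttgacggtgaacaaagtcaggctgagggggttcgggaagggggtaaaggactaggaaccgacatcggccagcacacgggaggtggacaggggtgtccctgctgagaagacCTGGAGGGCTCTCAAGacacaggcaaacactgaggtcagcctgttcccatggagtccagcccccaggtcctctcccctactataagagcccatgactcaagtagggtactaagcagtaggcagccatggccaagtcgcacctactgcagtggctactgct
Sftpa1: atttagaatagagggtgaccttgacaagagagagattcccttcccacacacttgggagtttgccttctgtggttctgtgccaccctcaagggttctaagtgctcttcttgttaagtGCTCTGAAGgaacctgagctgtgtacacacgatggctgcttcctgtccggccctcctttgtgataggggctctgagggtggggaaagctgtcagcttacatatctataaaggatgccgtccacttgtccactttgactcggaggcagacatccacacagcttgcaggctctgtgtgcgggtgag
Lamp3: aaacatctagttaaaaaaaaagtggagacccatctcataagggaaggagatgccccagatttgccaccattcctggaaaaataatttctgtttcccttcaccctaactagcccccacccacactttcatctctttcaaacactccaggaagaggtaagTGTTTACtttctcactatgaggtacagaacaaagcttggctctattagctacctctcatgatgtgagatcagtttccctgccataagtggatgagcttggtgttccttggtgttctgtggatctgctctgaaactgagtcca

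The matches began 110 and 103 bases before the start in Sftpb, 134 before it in Sftpa1 and 92 before it in Lamp3. One of the Etv5 promoters had a forkhead motif too, 183 bases before its start. Across all 32851 promoters in the table, 17.5% held the NKX2-1 element and 3.65% held the forkhead motif, against 2 of 8 promoters of these genes for each. An ETS motif (CCGGAAG) was in 8.86% of all promoters and in 0 of these 8. These matches describe letters in a window and were not tested for binding.

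Total counts on genes ran from 3205822 to 9366774 per library, so that 3 counts correspond to 0.320 to 0.936 CPM (counts per 1000000 counts on genes in that library). Sgo1 itself had 6, 2 and 4 counts in RAG1-/- and 6, 0 and 2 in RAG1-/- Sgo1-/+, too few to check the genotype, and Rag1 had 8 to 24. Xist, the RNA of the inactive X chromosome, had 7717 counts in replicate 1 and 4 to 8 in the other 5 libraries. The study used both sexes, so replicate 1 may be the only female, and sex would then not be balanced between groups. Igkc, the kappa light chain constant region, had 1853 counts in replicate 2 and at most 8 elsewhere. Replicate 6, the shallowest library, stood apart in several macrophage markers, which are given beside the results they touch.

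Surfactant transcripts were among the most abundant RNA of these lungs. Sftpc, the precursor of the hydrophobic protein SP-C and the gene used most widely to mark type 2 cells, was second of all genes by mean CPM, after Scgb1a1, the secretory protein of club cells. Sftpa1, for SP-A, was 4th, Slc34a2 13th and Sftpb 19th, and 6 of the 10 genes were among the 100 highest. The 10 genes together held 3.43%, 2.80% and 3.16% of all counts in RAG1-/- (3.13% ± 0.313, SD, n = 3) and 3.19%, 2.68% and 2.45% in RAG1-/- Sgo1-/+ (2.77% ± 0.378, SD, n = 3). The groups overlapped. All 10 genes had counts in every library, down to Lpcat1, which ranked 3395th by mean CPM. The 14 other type 2 markers, which are not part of the set, summed to between 13459 and 17261 CPM per library.

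Levels can be compared between genes only after division by length, and on this scale (CPM per kilobase of exon) the order of the 10 genes was the same in all 6 libraries. Sftpc averaged 21418, with a range of 15689 to 25745 over the 6 libraries, 12.2-fold above Sftpa1 at 1752 (1596 to 2012). Sftpb followed at 1163 and Sftpd at 889, then the phosphate carrier Slc34a2 at 589. The lamellar body gene Lamp3 stood at 309, Napsa at 173 and Abca3 at 85.9, with the transcription factor Etv5 at 51.6 and Lpcat1 at 17.9. None of the 9 neighbouring pairs in this order overlapped over the 6 libraries, and the span from Sftpc to Lpcat1 was 1199-fold.

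**Figure D1:**
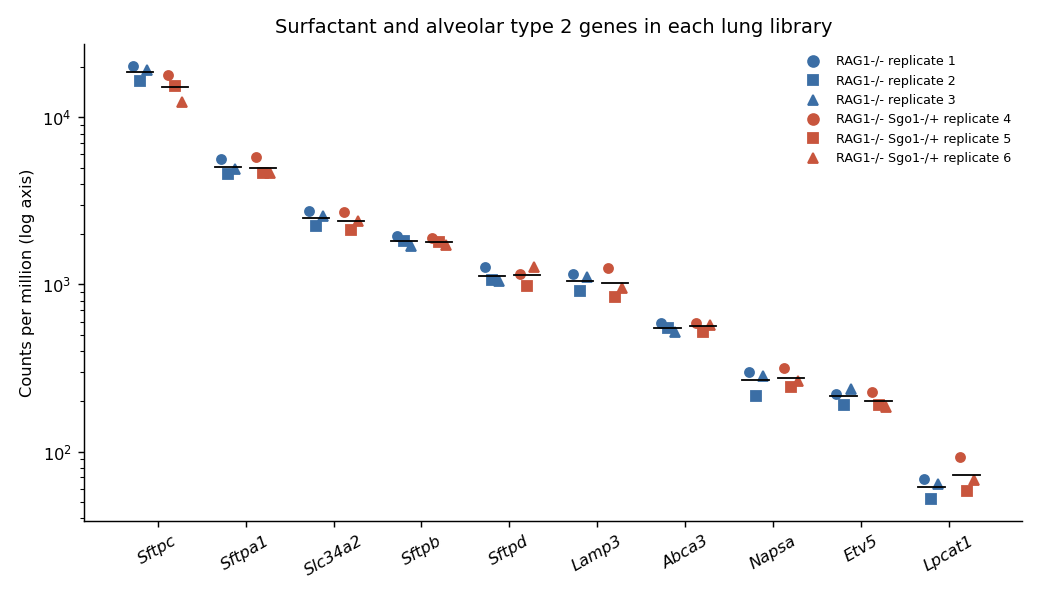
CPM of the 10 surfactant and alveolar type 2 genes (log axis) in each of the 6 libraries, not divided by gene length. Points are mice, blue for RAG1-/- and red for RAG1-/- Sgo1-/+, and horizontal lines are group means. The groups overlap for every gene, and the largest distance between group means in counts is that of Sftpc, with replicate 6 lowest at 12426.

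The comparison of RAG1-/- Sgo1-/+ with RAG1-/- called none of the 10 genes. A call needed 2-fold or more and P under 0.05 in edgeR's quasi-likelihood test after Benjamini–Hochberg correction. Of the 17231 genes tested, 0 were called (0%). The adjusted P of the 10 genes lay between 0.832 and 0.996. The smallest adjusted P over all genes tested was also 0.832, so genes with quite different unadjusted P share that value. The study itself did report genes at 2-fold and P under 0.05 between these groups, also with edgeR. Why the outcomes differ was not tested. At an unadjusted P under 0.05 the count was 0 of 10, against 976 of all genes tested (5.66%). The groups were free of overlap in CPM for 0 of the 10, against 2030 of all genes tested (11.8%). DESeq2 likewise called 0 of the 10 and gave 1 of them, Sftpc, an unadjusted P under 0.05. The median log2 fold change of the 10 genes was -0.0090, beside 0.034 over all genes tested. By the fitted value 6 of the 10 were lower in RAG1-/- Sgo1-/+ and 4 were higher, which became 8 and 2 under TMM scaling and 7 and 3 with DESeq2 size factors, because several values lie next to 0.

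Precision was enough to bound each of these genes. The 95% interval of the fold change excluded both a halving and a doubling for all 10. Counting error was below the spread between mice at the highest and the lowest count. Its coefficient of variation was 0.229% at the highest count, 190990 for Sftpc, and 6.79% at the lowest, 217 for Lpcat1. Within RAG1-/- and RAG1-/- Sgo1-/+, the coefficient of variation was 10.8% and 17.9% for Sftpc and 13.9% and 24.1% for Lpcat1. Over the 10 genes it was 5.07% to 24.1% within a group. Of the counts above 0, 63.5% to 69.0% per library were even, so both reads of a pair may have been counted, and with halved counts the counting values would be 0.324% and 9.60%. The biological coefficient of variation that edgeR estimated had a median of 17.1% for these genes and 19.9% for all genes tested.

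**Figure D2:**
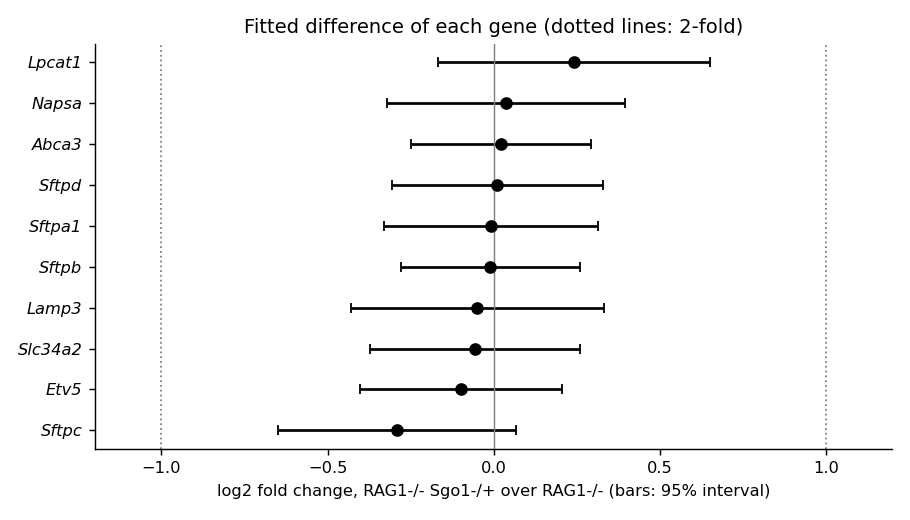
Log2 fold change of each gene, RAG1-/- Sgo1-/+ over RAG1-/-, from the edgeR quasi-likelihood fit, with its 95% interval (n = 3 per group). Dotted lines mark a 2-fold difference in either direction. All 10 intervals include 0 and lie inside the dotted lines, and the extremes are Sftpc at -0.29 and Lpcat1 at 0.24.

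Among the surfactant proteins, Sftpc came nearest to a difference. Its level was 20390, 16447 and 19187 CPM in RAG1-/- and 17861, 15470 and 12426 CPM in RAG1-/- Sgo1-/+. The lowest mouse, replicate 6, and the highest, replicate 1, differed 1.64-fold, and replicate 4 lay above replicate 2, so the groups overlapped. The means were 18675 ± 2021 and 15252 ± 2724 CPM (SD, n = 3 each). The log2 fold change was -0.29 (SE 0.16, 95% interval -0.65 to 0.067, edgeR quasi-likelihood unadjusted P = 0.0996, adjusted P = 0.832). An exact permutation test of CPM, two-sided, gave P = 0.2, where the smallest P that 3 against 3 allows is 0.1. In bulk tissue, the number of type 2 cells and the Sftpc RNA per cell both enter this level, and neither was measured alone. The sum of the other 9 genes, given below, overlapped between groups.

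Without replicate 6, where 6 of 8 macrophage markers were highest, the log2 fold change of Sftpc was -0.16, and without replicate 4 it was -0.42. Sftpc was lower in RAG1-/- Sgo1-/+ under all 15 alternative settings, and its adjusted P passed 0.05 in none of them, by edgeR, DESeq2 or limma-voom.

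Sftpb encodes SP-B, the protein without which lamellar bodies and the surface film do not form. It was the steadiest of the 10 genes together with Abca3, at 1937, 1816 and 1696 CPM in RAG1-/- and 1895, 1803 and 1713 CPM in RAG1-/- Sgo1-/+, a span of 1.14-fold over all mice. The log2 fold change was -0.010 (SE 0.12, 95% interval -0.28 to 0.26, edgeR adjusted P = 0.994). Sftpb thus differed between mice by less than Sftpc did, and each group held high and low mice.

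The collectins were level between groups. Sftpa1, whose product SP-A opsonises microbes and takes part in tubular myelin, stood at 5620, 4564 and 4886 CPM in RAG1-/- and at 5753, 4620 and 4614 CPM in RAG1-/- Sgo1-/+. Replicates 1 and 4 were the high ones, 1 in each group, and the log2 fold change was -0.0079 (SE 0.14, 95% interval -0.33 to 0.31, edgeR adjusted P = 0.996). Sftpd, whose product SP-D binds microbial sugars and limits the surfactant pool, stood at 1269, 1067 and 1051 CPM against 1156, 985 and 1272 CPM. Replicates 1 and 6 were its highest mice, 1 in each group, although Sftpc was lowest in replicate 6, and its log2 fold change was 0.011 (SE 0.14, 95% interval -0.31 to 0.33, edgeR adjusted P = 0.994).

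Lamellar body genes gave the same picture. Abca3, the lipid transporter that fills lamellar bodies with phospholipid, was measured at 586, 552 and 518 CPM in RAG1-/- and at 591, 520 and 571 CPM in RAG1-/- Sgo1-/+, with a log2 fold change of 0.022 (SE 0.12, 95% interval -0.25 to 0.29, edgeR adjusted P = 0.984). Lamp3, a membrane glycoprotein of the lamellar body, was measured at 1148, 909 and 1102 CPM against 1261, 840 and 954 CPM. Replicate 4 was its highest mouse and replicate 5 its lowest, both RAG1-/- Sgo1-/+, and its log2 fold change was -0.049 (SE 0.17, 95% interval -0.43 to 0.33, edgeR adjusted P = 0.976). Napsa, the aspartic protease napsin A that takes part in processing the SP-B precursor, was at 301, 216 and 285 CPM against 316, 242 and 264 CPM, a log2 fold change of 0.037 (SE 0.16, 95% interval -0.32 to 0.40, edgeR adjusted P = 0.981).

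Slc34a2, the sodium-phosphate cotransporter NaPi-IIb that recovers phosphate from alveolar fluid, was at 2734, 2229 and 2565 CPM in RAG1-/- and 2717, 2119 and 2405 CPM in RAG1-/- Sgo1-/+. The fit gave a log2 fold change of -0.056 (SE 0.14, 95% interval -0.37 to 0.26, edgeR adjusted P = 0.965). Replicates 1 and 4 were again the highest of their groups and replicates 2 and 5 the lowest.

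Lpcat1, which remodels phosphatidylcholine into the dipalmitoyl form found in surfactant, was the least abundant of the 10 and had the largest upward value. Its level was 68.4, 51.9 and 64.0 CPM in RAG1-/- and 92.3, 58.3 and 67.7 CPM in RAG1-/- Sgo1-/+. Replicate 4 stood above the other 5 mice, and replicate 5 lay below replicates 1 and 3. The log2 fold change was 0.24 (SE 0.18, 95% interval -0.17 to 0.65, edgeR adjusted P = 0.862), and it was 0.029 without replicate 4.

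Etv5, an ETS-family transcription factor that maintains the type 2 state downstream of FGF and Ras signalling, was at 220, 190 and 236 CPM in RAG1-/- and 226, 190 and 186 CPM in RAG1-/- Sgo1-/+. The fit gave a log2 fold change of -0.099 (SE 0.14, 95% interval -0.40 to 0.20, edgeR adjusted P = 0.923), with replicate 6 lowest and replicate 3 highest.

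The mice differed from each other in a shared way. Within RAG1-/-, replicate 1 was the highest mouse for 9 of the 10 genes and replicate 2 the lowest for 7. Within RAG1-/- Sgo1-/+, replicate 4 was highest for 9 of the 10, and the lowest was replicate 5 for 6 of them and replicate 6 for the other 4. Replicate 1 was also the library with high Xist and the highest adipocyte markers, and whether its levels here depend on either was not tested. The summed level of the 10 genes was 34274, 28042 and 31589 CPM in RAG1-/- and 31869, 26848 and 24472 CPM in RAG1-/- Sgo1-/+.

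The summed level of the 12 alveolar type 1 markers, genes of the flat gas-exchange cells, moved with that sum over the mice. It was 12856, 9472 and 10963 CPM in RAG1-/- against 14856, 10143 and 9020 CPM. Sftpc held 50.8% to 60.7% of the sum of the 10 genes. The other 9 genes together were not lowest in replicate 6, at 12046 CPM against 11594 in replicate 2 and 11378 in replicate 5. Summed, the 8 club cell markers, genes of the secretory cells of the airway, were highest in replicates 2 and 5 and lowest in replicates 3 and 4. The sums were 69760, 79851 and 54046 CPM in RAG1-/- against 57091, 81203 and 65775. Most of each sum is Scgb1a1. Scgb3a1, Bpifa1, Bpifb1 and Muc5b went the other way in replicate 2, each at its lowest there (174, 445, 26.7 and 64.0 CPM). Scgb1a1, the highest gene of the table, was at 72724 CPM in replicate 2 and 72841 CPM in replicate 5, the libraries where most of the 10 genes were lowest. Whether the share of alveolar and airway tissue in a sample had a part in the level of these genes was not tested.

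**Figure D3:**
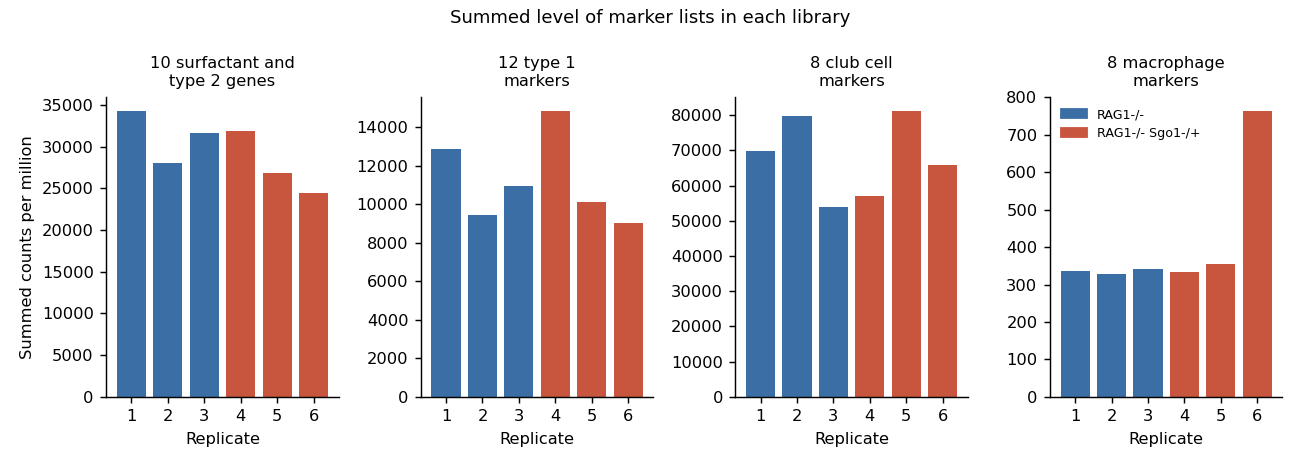
Summed CPM of the 10 surfactant and type 2 genes, 12 type 1 markers, 8 club cell markers and 8 macrophage markers in each library (bars from 0; blue RAG1-/-, red RAG1-/- Sgo1-/+; 1 mouse per bar). The first and second panels are high in replicates 1 and 4, lower in 2 and 5 and lowest in 6. The club cell panel, mostly Scgb1a1, is highest in replicates 2 and 5. The sum of macrophage markers reaches 764 CPM in replicate 6 against 329 to 355 in the other 5.

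Ratios within a library do not depend on its total count, so each of the other 9 genes was also expressed per 100 Sftpc counts. Sftpa1 had 27.6, 27.7 and 25.5 counts per 100 of Sftpc in RAG1-/- and 32.2, 29.9 and 37.1 in RAG1-/- Sgo1-/+. Slc34a2 had 13.4, 13.6 and 13.4 against 15.2, 13.7 and 19.4. The ratios of Sftpa1 and Slc34a2 spread little among the RAG1-/- mice and more among the RAG1-/- Sgo1-/+ mice. For Sftpb the groups were closer in spread, with an SD of 1.13 in RAG1-/- and 1.62 in RAG1-/- Sgo1-/+. Replicate 6 had the highest ratio for all 9 genes.

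For 5 of the 9 genes, Sftpa1, Napsa, Slc34a2, Lpcat1 and Etv5, all RAG1-/- Sgo1-/+ mice had a higher ratio to Sftpc than all RAG1-/- mice. The groups were free of overlap in the same ratio for 20.5% of all genes with a value, in either direction, and the 9 ratios share 1 denominator, so they are not 9 separate results. Napsa was at 1.48, 1.31 and 1.48 per 100 Sftpc counts in RAG1-/- against 1.77, 1.56 and 2.13, and Lpcat1 at 0.336, 0.316 and 0.334 against 0.517, 0.377 and 0.545. The exact two-sided permutation test of each of these 5 ratios gave P = 0.1, the smallest possible, and 0.18 after adjustment over the 9 ratios.

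The ratio of group means lay between 1.15 for Etv5 and 1.46 for Lpcat1. Without replicate 6 the 9 values ran from 1.06 to 1.36, and without replicate 2 from 1.15 to 1.43. For Sftpd the groups overlapped, at 6.22, 6.49 and 5.48 per 100 Sftpc counts against 6.47, 6.37 and 10.2, and its group-mean ratio of 1.27 became 1.06 without replicate 6.

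With Sftpa1 as the reference gene, a choice made after the ratios to Sftpc were seen, only Sftpc of the 9 other genes had groups free of overlap. The share over all genes with a value was 7.15%. The Sftpc ratio is the inverse of the Sftpa1 ratio given above. Its lack of overlap and its permutation P were thus fixed in advance and are not a second result. There were 363, 360 and 393 Sftpc counts per 100 of Sftpa1 in RAG1-/- against 310, 335 and 269. The group-mean ratio was 0.820, and 0.867 without replicate 6 (exact permutation P = 0.1, adjusted 0.90 over the 9 ratios). The share of Sftpc among the counts of the 10 genes was 59.5%, 58.7% and 60.7% in RAG1-/- against 56.0%, 57.6% and 50.8%. The other 9 genes together were at 13883, 11594 and 12402 CPM against 14008, 11378 and 12046 CPM, a sum that overlapped between groups.

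**Figure D4:**
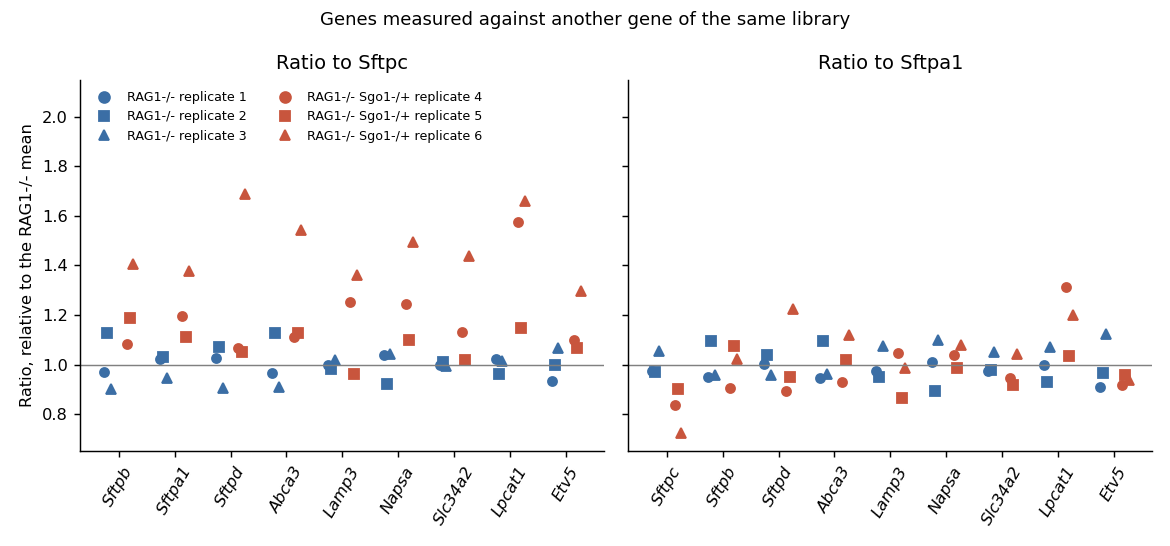
Ratio of each gene to Sftpc (left) and to Sftpa1 (right) in the same library, divided by the mean ratio of the 3 RAG1-/- mice, so that 1 is the control mean. Points are mice, blue for RAG1-/- and red for RAG1-/- Sgo1-/+. Ratios to Sftpc are highest in replicate 6 for all 9 genes, and among ratios to Sftpa1 only those of Sftpc itself are free of overlap. These are the inverse of the Sftpa1 ratios on the left.

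Other genes of the surfactant system were described by lists, with 0 genes called in any of them and each count to be read against the 5.66% of all genes tested that had an unadjusted P under 0.05. Of 14 other type 2 markers, 1 was higher and 1 lower at that level, with a median log2 fold change of 0.028. Lyz2, the lysozyme of type 2 cells and macrophages, was at 10034, 7541 and 8733 CPM in RAG1-/- and 9854, 7233 and 8400 CPM in RAG1-/- Sgo1-/+, although reads of the near-identical Lyz1 may be split between the copies. Cxcl15, the lung chemokine lungkine, was at 2416 to 3292 CPM, with replicate 6 lowest as for Sftpc.

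Cd74, the invariant chain of MHC class II and a type 2 marker that antigen-presenting cells also express, was the gene of these lists with the smallest unadjusted P. It was at 554, 505 and 516 CPM in RAG1-/- and 642, 807 and 864 CPM in RAG1-/- Sgo1-/+. It was the 1 gene of the 14 other type 2 markers without overlap, beside 11.8% of all genes tested. The log2 fold change was 0.55 (SE 0.14, edgeR unadjusted P = 0.003, adjusted P = 0.832). It was 0.46 to 0.67 when single mice were left out, and 0.46 without replicate 6, where 6 of the 8 macrophage markers had their highest value and Csf1r its lowest. Bex2 was the lower one, at 41.0, 65.1 and 77.8 CPM against 44.0, 34.1 and 23.1 CPM (log2 fold change -0.84, SE 0.27, edgeR adjusted P = 0.832), with overlap.

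Of 24 genes of surfactant lipid synthesis and handling, 1 was higher and 1 lower at an unadjusted P under 0.05, and the list median was 0.039. Srebf2, a regulator of sterol synthesis, was at 115, 116 and 114 CPM against 133, 154 and 138 CPM (log2 fold change 0.30, SE 0.12, edgeR adjusted P = 0.832). It was 1 of 2 genes of the list without overlap, beside 11.8% of all genes tested. Elovl6, a fatty acid elongase, was at 26.7, 7.27 and 7.26 CPM against 6.47, 6.11 and 6.24 CPM. Its log2 fold change of -1.16 became -0.21 without replicate 1, the library that also held the highest adipocyte markers, 1402 summed CPM against 104 to 211 in the other 5. Scd1, the stearoyl-CoA desaturase and the most abundant gene of the list, ranged from 1786 to 4604 CPM with its highest value in replicate 6, and Prdx6, a peroxiredoxin with phospholipase activity on surfactant lipid, from 1237 to 1827 CPM with its lowest there.

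Genes of surfactant protein processing and lamellar body traffic numbered 15, of which 0 were higher and 1 lower at an unadjusted P under 0.05, with a median of -0.043. Adgrf5, the receptor that restrains the surfactant pool, was at 651 to 918 CPM and Nedd4, the ubiquitin ligase that sorts the SP-C precursor, at 463 to 586 CPM, both lowest in replicate 6. The lower one, Zdhhc2, was near the detection limit at 0.741 to 5.75 CPM. In 3 genes of the list, Ap3d1, Hps4 and P2ry2, the RAG1-/- Sgo1-/+ mice all lay above the RAG1-/- mice, where 11.8% of all genes tested were free of overlap in either direction. They were named after their values were seen, and their log2 fold changes were 0.24, 0.58 and 0.46 with an edgeR adjusted P of 0.832 each.

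The 14 transcription factors of the alveolar epithelium had 0 genes with an unadjusted P under 0.05 and a median of 0.058. Nkx2-1 was at 399, 379 and 371 CPM in RAG1-/- and 489, 459 and 412 CPM in RAG1-/- Sgo1-/+. Letters of its element stand in the promoters of Sftpb and Sftpa1 shown above, as in 17.5% of all promoters. The groups did not overlap for Nkx2-1, the 1 such gene of the 14, where 11.8% of all genes tested were free of overlap. Its log2 fold change was 0.24 (SE 0.12, edgeR adjusted P = 0.832), and Sftpb and Sftpa1 stood at -0.010 and -0.0079 in the same fit. Nfib, a nuclear factor of lung maturation, was at 263 to 421 CPM, with replicate 6 lowest and overlap between groups.

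Around Etv5, the 14 genes of FGF receptor signalling had 0 genes with an unadjusted P under 0.05 and a median of -0.046. Fgfr2, the receptor of the epithelium, was at 281, 304 and 302 CPM against 289, 259 and 215 CPM, and Id2, a helix-loop-helix regulator, at 175 to 212 CPM. Dusp6, a phosphatase that FGF signalling induces, was the 1 gene of the list without overlap, beside 11.8% of all genes tested, at 199, 181 and 194 CPM against 170, 164 and 136 CPM. It was named after its values were seen, and its log2 fold change was -0.28 (edgeR adjusted P = 0.832). The other feedback inhibitors of the list did not share that value, with log2 fold changes of 0.18 for Spry1, 0.0099 for Spry2, -0.10 for Spry4, 0.15 for Spred1 and 0.34 for Spred2.

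Clearance of surfactant by macrophages was covered by 10 genes, of which 2 were higher and 0 lower at an unadjusted P under 0.05. Both had their highest value in replicate 6. By the sign of the fitted value, 6 of the 10 were higher and 4 lower. Chil3, the chitinase-like protein of alveolar macrophages, was at 651, 321 and 238 CPM in RAG1-/- and 249, 239 and 6083 CPM in RAG1-/- Sgo1-/+. Its log2 fold change of 2.44 (SE 1.07) became -0.73 without replicate 6. Csf2rb2, a close paralog of the GM-CSF receptor chain Csf2rb whose reads may be split with it, was at 11.1, 4.85 and 8.32 CPM against 10.1, 12.4 and 32.4 CPM. Its log2 fold change of 1.12 became 0.45 without replicate 6 and so stayed higher. Replicate 6 was thus the library with the highest Chil3 and Scd1 and the lowest Sftpc.

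**Figure D5:**
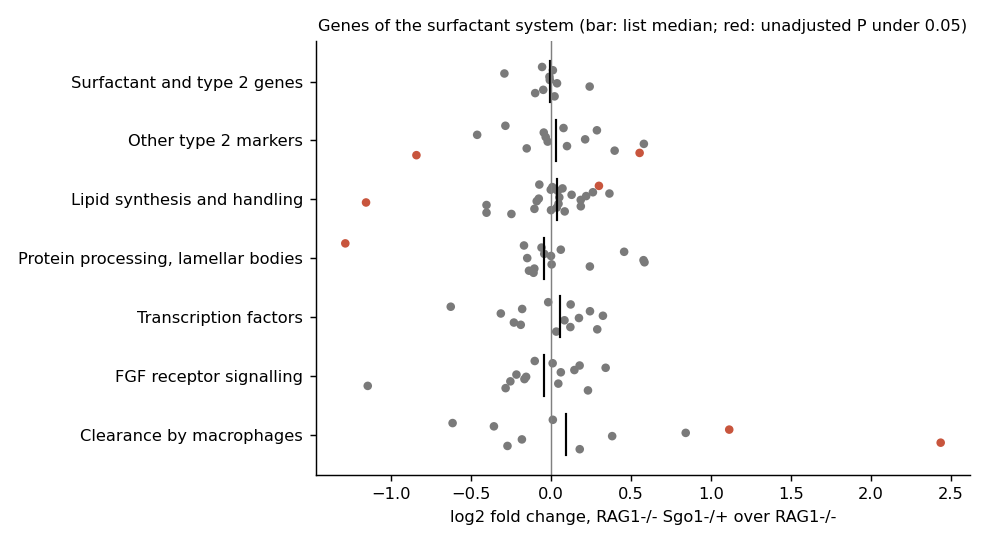
Log2 fold change, RAG1-/- Sgo1-/+ over RAG1-/-, of the 10 surfactant and type 2 genes and of 6 lists of the surfactant system (edgeR fit, 3 mice per group). Each point is a gene, black bars are list medians and red points have an unadjusted P under 0.05. The list medians lie between -0.046 and 0.095, and no point passed the adjusted threshold.

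The remaining marker lists, each with 0 genes called, frame these values. Their counts are also to be read against the 5.66% of all genes tested with an unadjusted P under 0.05. The 12 genes of the epithelium as a whole had a median log2 fold change of 0.064, the 12 type 1 markers 0.0073 and the 8 club cell markers 0.023, all with 0 genes at an unadjusted P under 0.05. Ciliated cell markers had a median of 0.30 (2 of 8 higher at that level), smooth and heart muscle markers 0.25 (2 higher) and macrophage markers 0.40 (2 higher, 1 lower). Endothelial markers had a median of -0.14 (1 of 8 lower) and fibroblast markers -0.26 (1 lower). Groups were free of overlap in CPM for 4 of 8 endothelial and 3 of 8 smooth and heart muscle markers. At most 1 gene was so in each of the other remaining lists, beside 11.8% of all genes tested. Adipocyte markers (5 of 8 lower) and B cell and plasma cell markers (5 of 8 lower) were each high in 1 RAG1-/- library, replicate 1 at 1402 summed CPM and replicate 2 at 918 summed CPM. Of 7 proliferation genes tested, 0 had an unadjusted P under 0.05, with a median of 0.23.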

How the data were processed

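RNA from the lungs of 6 mice was sequenced (TruSeq RNA V2, MiSeq). The authors deposited whole-number read counts for 25860 genes, made on mouse Build 37.2 per the file headers, without normalization. BWA and edgeR are named in the submitters' processing notes, and GeneSifter in the study's methods. Strand and multiple mapping are not given in the sources used here. Each library's column occurs again with identical values in 6 of 6 cases, and 1 was used. A deposited list of the authors' own comparison (group means, ratios, p-values) was not used.

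Symbols were matched for 24048 genes (93.0%). Genes with at least 10 summed counts were fitted in edgeR 4.0.16 (R 4.3.3) with the quasi-likelihood test, total count as library size and Benjamini–Hochberg adjustment over 17231 genes. The SE is the log2 fold change over the square root of F. Exon lengths came from an annotation on GRCm38, and the counts were not read by coordinates. The workflow was tested on simulated data. Alternatives were other scalings, filters, DESeq2 1.42.0, limma-voom 3.58.1, halved counts and each mouse left out. The 10 genes and the 17 lists were chosen with earlier results of these data known. From each list at most 2 genes with the largest mean CPM and at most 3 with the smallest unadjusted P under 0.05 were eligible to be named, the marker lists of other cells being summarised. Ap3d1, Hps4, P2ry2, Dusp6, Spry1, Spry2, Spry4, Spred1, Spred2 and Csf1r fall outside that rule and were named after their values were seen. The same holds for Scgb3a1, Bpifa1, Bpifb1, Muc5b and Siglecf. Halved counts were run because most counts are even.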

Additional observations from a re-analysis of the deposited data

How the results depend on the processing

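None of the 10 genes was called under any of the 15 alternatives, among them DESeq2 and limma-voom, nor without a fold threshold, and their adjusted P was never below 0.577. The number with an unadjusted P under 0.05, 0 in the edgeR fit, was 1 (Sftpc, -0.31) with DESeq2 and 0 to 1 when single mice were left out. The number with groups free of overlap, 0 with all mice, was 1 (Sftpc, without replicates 2 and 6) and 0 to 1 when single mice were left out. Values next to 0 changed sign. Sftpd became -0.016 with TMM, -0.011 with DESeq2 size factors and -0.011 with DESeq2, and Abca3 became -0.0039 with TMM. Without both replicates 2 (high Igkc) and 6 (high Chil3), but with replicate 1, log2 fold changes became 0.026 for Sftpb, -0.12 for Sftpd, -0.069 for Napsa, -0.43 for Scd1, 0.0022 for Adgrf5, 0.13 for Nedd4, -0.043 for Id2 and -0.87 for Chil3. Scd1 was -0.025 with limma-voom. Leaving out single mice gave -0.42 to -0.16 for Sftpc, -0.057 to 0.038 for Sftpb, -0.12 to 0.081 for Sftpa1, -0.077 to 0.10 for Sftpd, -0.022 to 0.073 for Abca3, -0.23 to 0.072 for Lamp3, -0.094 to 0.13 for Napsa, -0.15 to 0.029 for Slc34a2, 0.029 to 0.38 for Lpcat1 and -0.20 to -0.029 for Etv5. It gave -0.17 to 0.062 for Lyz2, -0.42 to 0.33 for Scd1, -0.052 to 0.20 for Prdx6, -0.060 to 0.10 for Nedd4, -0.22 to 0.019 for Adgrf5, -0.018 to 0.12 for Id2 and -0.73 to 2.97 for Chil3. The cause of these changes was not tested. No paired analysis was possible because the labels give the groups no replicate number in common. Intervals and counting errors cover what 3 mice per group and these depths allow, and PCR copies were not removed from the counts by molecular identifiers.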
